A study of Drosophila melanogaster with 12 samples.

Results

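The 33 proteasome subunit genes described here are those whose names in the deposited tables begin with Prosalpha, Prosbeta, Rpn and a digit, or Rpt and a digit, out of 9981 genes in all. They comprise 31 core subunits and 2 paralogs of base ATPases, Rpt3R and Rpt6R. Of the core subunits, 6 belong to the alpha rings of the 20S core particle, 7 to its beta rings, 6 are ATPases of the base of the 19S regulatory particle (Rpt1 to Rpt6), 4 are base subunits without ATPase activity (Rpn1, Rpn2, Rpn10 and Rpn13) and 8 form the lid of the 19S particle (Rpn3, Rpn5, Rpn6, Rpn7, Rpn8, Rpn9, Rpn11 and Rpn12). Prosalpha1 was not analysed here. The small lid subunit Sem1 carries a name outside this rule and is treated among the partner genes below.

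The proteasome is the protease complex that degrades proteins tagged with ubiquitin in the cytosol and the nucleus. Alpha and beta rings stack into the barrel of the 20S particle, with the protease sites facing inwards on beta subunits, while the 19S particle binds ubiquitin chains, removes them and uses ATP to unfold the substrate and feed it into the barrel. In flies and mammals the genes for its subunits are known to be transcribed together, and a shortage of proteasome activity can raise their transcription through CncC or its mammalian relative Nrf1. In the adult midgut, CncC signaling and protein turnover are known to bear on enterocyte maintenance and on the behavior of intestinal stem cells.

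RNA was prepared from dissected intestines of adult flies in 2 experiments that asked how loss of dMPC1, a subunit of the carrier that brings pyruvate into mitochondria, affects the intestine. In the first, RNAi against dMPC1 was driven in enterocytes by myo1A-GAL4, with mCherry-RNAi, directed at a fluorescent protein that flies lack, as the control. Both genotypes carried Tub-GAL80ts, which restricts GAL4 to the adult stage, and RNAi was active for 7 days in flies aged 4 to 5 days when it began. In the second, flies aged 7 to 10 days were transheterozygous for a pair of dMPC1 deletion alleles, and controls carried a precise excision of the P element at that locus, labelled as wild type. The strain is given as w1118 throughout. The libraries analysed were dMPC1-RNAi replicates 1, 2 and 3, mCherry-RNAi replicates 1 and 3, dMPC1 mutant replicates 1 and 2 and precise excision replicate 2, which makes 8 of the 12 libraries in the labels. Whole intestines hold enterocytes, stem cells, enteroendocrine cells and visceral muscle, so the RNAi acts in 1 cell type of a mixture, whereas the mutation is present in every cell.

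The libraries held between 7362983 and 21918521 reads in genes. The targeted gene, listed as Mpc1, stood at 841, 803 and 819.5 normalized counts in dMPC1-RNAi intestines, against 3114 and 2936 in mCherry-RNAi intestines, and at 5.31 and 13.7 in dMPC1 mutants, against 1997 in the precise excision library. A normalized count is the number of reads on a gene after the authors' scaling of each library by 1 size factor. dMPC1-RNAi replicate 1 stood apart from the others in transcripts of the female germline, with osk at 90.5 normalized counts there against 0.960 and 2.45 in replicates 2 and 3. Results are therefore also given without that library where it matters.

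All 31 core subunit genes were abundantly expressed, with means over the 8 libraries between 887 normalized counts (Prosbeta3) and 2099 (Rpn1). Divided by exon length, which makes genes comparable, they spanned 608 (Rpn2) to 1487 (Prosalpha2) normalized counts per kilobase. The genes lie on 5 chromosome arms. The per-kilobase median was 1080.4 for the 13 genes of the 20S particle and 835 for the 18 genes of the 19S particle. Within the 19S particle the ATPases had a median of 948 per kilobase, the lid subunits 806 and the base subunits without ATPase activity 697. The ratio of the 20S median to the 19S median per kilobase was 1.37, 1.23 and 1.29 in dMPC1-RNAi libraries, against 1.29 and 1.25 in mCherry-RNAi libraries, and 1.34 and 1.32 in dMPC1 mutants, against 1.24 in the precise excision library. The dMPC1-RNAi and mCherry-RNAi ranges of this ratio overlapped.

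**Figure D1:**
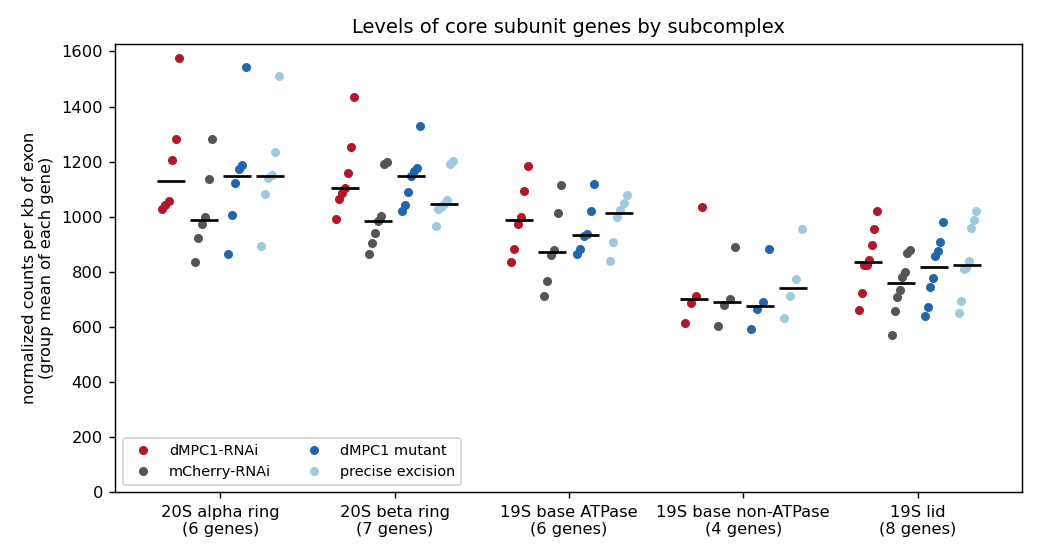
Normalized counts per kilobase of exon (vertical axis) for the 31 core subunit genes, grouped by subcomplex, with 1 point per gene at its group mean and a black bar at the median of the genes. The medians of the 20S alpha and beta ring genes sit highest and that of the base subunits without ATPase activity lowest in each of the 4 groups of libraries.

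Enterocyte knockdown of dMPC1 left transcripts of the core proteasome close to the control level, with a small upward displacement that most subunits shared. The median log2 fold change of the 31 core genes was 0.19, or 1.14-fold, on the log2(normalized count + 1) scale, against −0.01 for all 8921 genes tested and −0.12 for the 1279 genes whose mean level lies within the range of the core subunits. A gene was called when its limma p, adjusted over all genes by the method of Benjamini and Hochberg, was 0.01 or less and its log2 fold change was 0.6 or more in size. By these thresholds 0 of 32 members tested were called, beside 13.7% of all genes (7.03% higher and 6.71% lower). edgeR and DESeq2 on recovered reads also called 0 members. At an unadjusted p under 0.05 from limma, 13 members were higher and 0 lower in dMPC1-RNAi intestines, beside 21.8% of all genes higher and 24.1% lower. The fold change was above 0 for 31 of 32 members, beside 49.3% of all genes, so the members were displaced together by an amount that single genes could hardly resolve.

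The displacement was visible in the summed level of the core subunits. The 31 genes together reached 41947, 40404 and 42349 normalized counts in dMPC1-RNAi replicates 1, 2 and 3, against 37425 and 36917 in mCherry-RNAi replicates 1 and 3. As a share of all reads in genes, they took 0.350%, 0.328% and 0.347% in dMPC1-RNAi libraries, against 0.239% and 0.242% in mCherry-RNAi libraries. The groups did not overlap on either scale, and the gap was wider in the share of reads, which also depends on the most abundant transcripts of the gut. Summed transcripts of 10 enterocyte markers, mostly digestive enzymes, spanned 528069 to 622779 normalized counts in dMPC1-RNAi libraries, against 981361 to 1027898 in mCherry-RNAi libraries, and their part in the share of reads was not tested. The sum was carried by proteases, and 2 of the 3 markers that are no digestive enzymes went the other way. nub, an enterocyte transcription factor, spanned 2588 to 3134 in dMPC1-RNAi libraries, against 1923 to 1976 in mCherry-RNAi libraries, and Myo61F 23624 to 24471, against 19713 to 19992, while Myo31DF was lower, at 5122 to 5584, against 5638 to 5684. Scaling each library to its total reads in genes, a choice made after seeing the data, moved the median of all genes in this comparison to 0.34. Under it the core median was 0.54, which is 0.20 above all genes, and Prosalpha5, Prosalpha2 and Prosalpha6 were called.

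**Figure D2:**
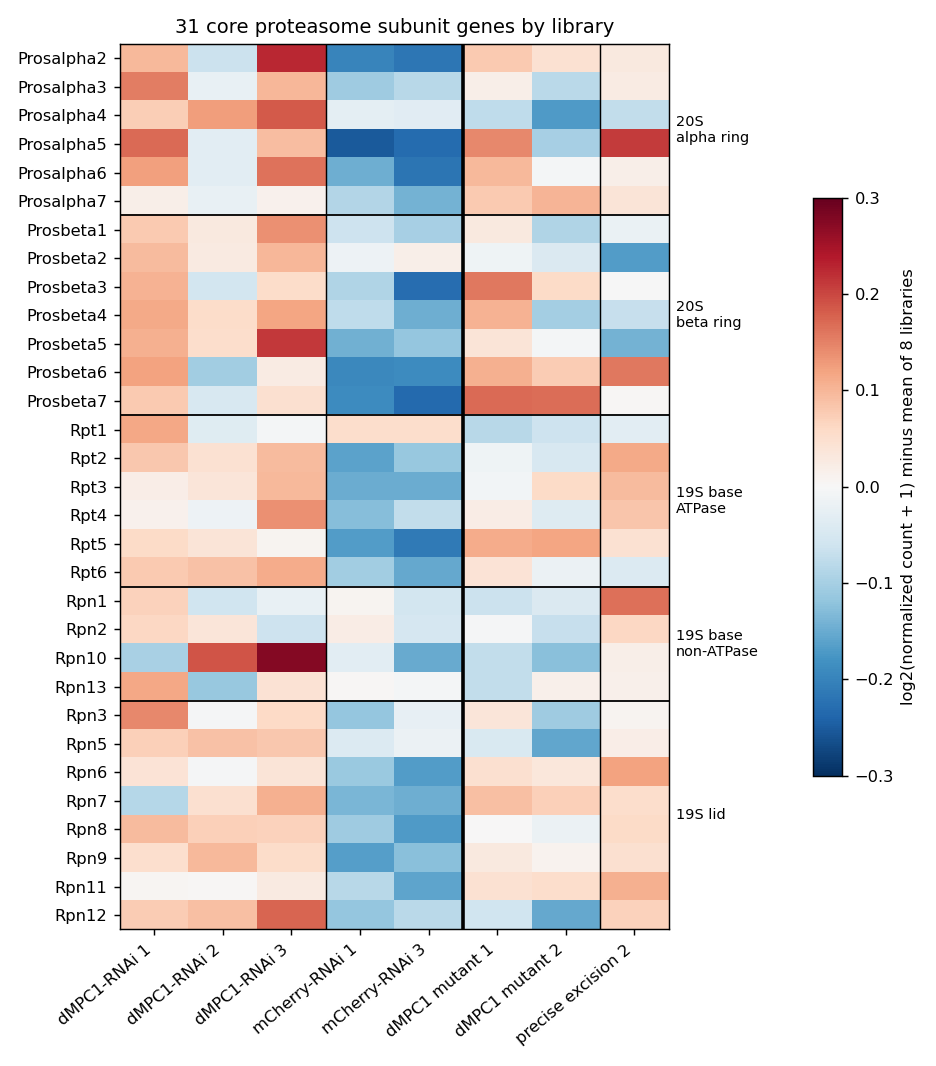
Each core subunit gene (vertical axis, ordered by subcomplex) in each library (horizontal axis), colored by its log2(normalized count + 1) minus the mean of that gene over the 8 libraries. Both mCherry-RNAi columns are blue, which marks values below a gene's mean, for most 20S, ATPase and lid genes, with Rpt1 and most base subunits without ATPase activity as exceptions.

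In the 20S particle, all 3 dMPC1-RNAi libraries lay above both mCherry-RNAi libraries for 13 of 13 genes. Such separation in the upward direction was found for 26 of the 32 members tested and for 30.8% of all genes, and separation in the downward direction for 0 members and 31.8% of all genes. The 6 alpha ring genes, which form the outer rings and the gate of the barrel, had a median log2 fold change of 0.22, and the 7 beta ring genes 0.20. The 13 genes of the 20S particle summed to 15570, 14444 and 15763 normalized counts in dMPC1-RNAi libraries, against 13311 and 13117 in mCherry-RNAi libraries. dMPC1-RNAi replicate 2 was the lowest of the 3 for 20 of the 31 core genes, beside 27.5% of the 8916 genes tested over all libraries.

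Prosalpha5 (FBgn0016697), an alpha ring subunit, differed most among the members. It stood at 1050.0, 913 and 995 normalized counts in dMPC1-RNAi intestines, against 784 and 795 in mCherry-RNAi intestines. Every dMPC1-RNAi library was above both controls, by a log2 fold change of 0.32 ± 0.09 (SE, limma adjusted p = 0.0367). In this fit it was the only member with an adjusted p of at most 0.05 from limma, beside 15.6% of all genes that were higher at that threshold. The limma count was 9 members with TMM scaling and 8 with all libraries in 1 fit, beside 16.8% and 16.5% of all genes higher. With scaling to total reads in genes it was 31, beside 44.1%. Prosalpha2 and Prosalpha6 followed with 0.29 and 0.27, and their adjusted p-values from limma were 0.0683 and 0.0632.

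The 3 catalytic beta subunits were among the genes shifted upwards but not among the called ones. Prosbeta5, the chymotrypsin-like protease, stood at 1612, 1552 and 1732 normalized counts in dMPC1-RNAi intestines, against 1355 and 1379.6 in mCherry-RNAi intestines. The ranges did not overlap, and its log2 fold change was 0.25 ± 0.08 (SE, limma adjusted p = 0.0557). Prosbeta1, the caspase-like protease, stood at 937, 905 and 976 in dMPC1-RNAi intestines, against 849 and 829 in mCherry-RNAi intestines, a log2 fold change of 0.16 ± 0.08 (SE, limma adjusted p = 0.160). Prosbeta2, the trypsin-like protease, stood at 1314, 1253 and 1318 in dMPC1-RNAi intestines, against 1217 and 1244 in mCherry-RNAi intestines. The lowest knockdown library of Prosbeta2 was thus only just above the higher control, and its log2 fold change of 0.07 (SE 0.08) had a 95% interval of −0.11 to 0.26.

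In the 19S particle the subcomplexes differed from each other in how cleanly the groups separated. The dMPC1-RNAi libraries were all above both mCherry-RNAi libraries for 8 of 8 lid genes and for 5 of 6 ATPase genes, but for 0 of 4 base subunits without ATPase activity. The lid genes summed to 10328, 10287 and 10480 normalized counts in dMPC1-RNAi libraries, against 9251 and 9231 in mCherry-RNAi libraries. The ATPase genes summed to 9152, 8921 and 9217 in dMPC1-RNAi libraries, against 8153 and 8163 in mCherry-RNAi libraries. For both groups of genes the lowest knockdown library was well above the higher control. The 4 other base genes summed to 6897, 6754 and 6889 in dMPC1-RNAi libraries, against 6709 and 6405 in mCherry-RNAi libraries, a much smaller gap. Their median log2 fold change was 0.02, compared with 0.17 for the lid and 0.21 for the ATPases, and differences between the subcomplexes were not tested.

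Among the lid genes, log2 fold changes lay between 0.11 (Rpn5) and 0.22 (Rpn8), a scaffold partner of the deubiquitinase Rpn11. Rpn11, the metalloprotease that cuts ubiquitin chains off the substrate, had 0.13 (95% interval −0.05 to 0.32). Rpn6, whose overexpression is known to raise proteasome assembly in several animals, had 0.17 (95% interval −0.01 to 0.34).

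Among the ATPases, which form the ring that unfolds the substrate, Rpt2, Rpt3, Rpt5 and Rpt6 had log2 fold changes of 0.21, 0.20, 0.22 and 0.22, and Rpt4 had 0.15. Rpt1 was the exception. It stood at 1763, 1589 and 1620.2 normalized counts in dMPC1-RNAi intestines, against 1689 and 1688 in mCherry-RNAi intestines, so that the controls lay inside the knockdown range. Its log2 fold change of −0.03, the lowest of the members, had a 95% interval of −0.22 to 0.17, and it was above 0 with TMM scaling and with scaling to total reads (0.32).

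The base subunits without ATPase activity hold the ubiquitin receptors and their platform. Rpn1 and Rpn2, the large scaffold subunits and the most abundant transcripts of the set before length is considered, had log2 fold changes of 0.02 and 0.03, with 95% intervals of −0.17 to 0.21 and −0.17 to 0.22. Rpn13, a ubiquitin receptor, had 0.02 (95% interval −0.21 to 0.24). Rpn10, the other receptor of this group, singled out after its values were seen, stood at 1257, 1532 and 1628 normalized counts in dMPC1-RNAi intestines, against 1316 and 1211 in mCherry-RNAi intestines. Replicate 1 lay between the controls while replicates 2 and 3 were higher, and without replicate 1 the log2 fold change of Rpn10 was 0.32 (limma adjusted p = 0.00676).

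**Figure D3:**
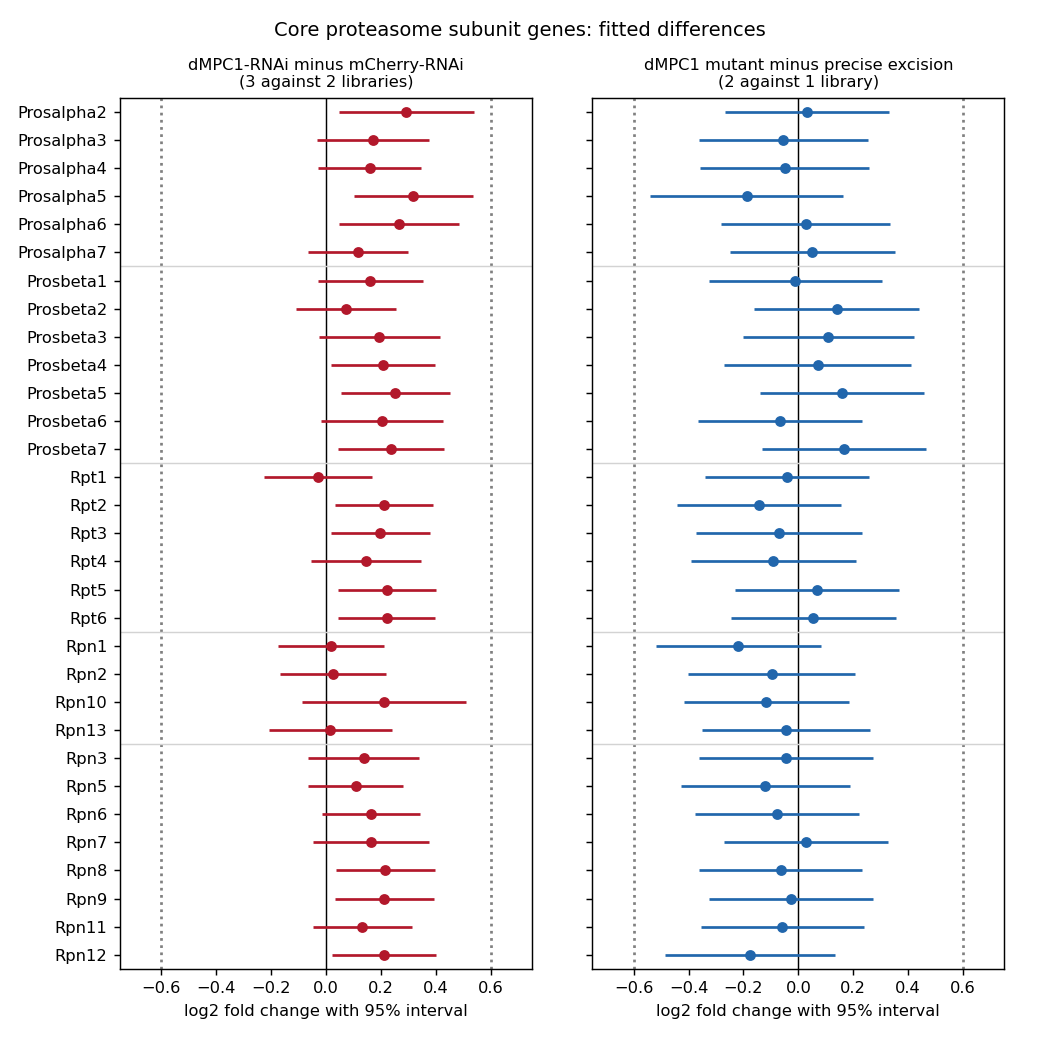
Log2 fold changes (horizontal axis) with 95% intervals from limma for the 31 core subunit genes, for dMPC1-RNAi minus mCherry-RNAi on the left and dMPC1 mutant minus precise excision on the right. Dotted lines mark a log2 fold change of 0.6 in either direction, and all 62 intervals stay between them, from −0.54 to 0.54.

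These intervals hold under the authors' scaling. Across the core genes they ran from −0.22 to 0.54 with RNAi and from −0.54 to 0.46 in mutants, so none reached the fold threshold of 0.6 in either direction, whereas with scaling to total reads the fold changes of Prosalpha5 (0.66), Prosalpha2 (0.64) and Prosalpha6 (0.61) were past it. The number of members past an adjusted p of 0.05 from limma depended on single libraries as well as on the scaling. It was 16 without dMPC1-RNAi replicate 1, 1 without replicate 2 and 0 without replicate 3, beside 24.1%, 10.2% and 11.1% of all genes higher. The core median itself stayed between 0.16 and 0.20 in these fits and without either mCherry-RNAi library.

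**Figure D4:**
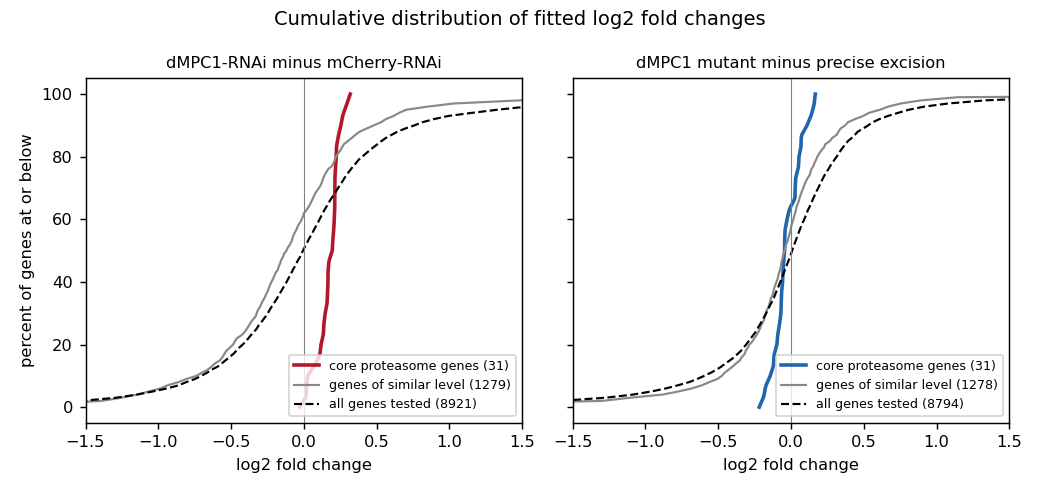
Cumulative percentage of genes (vertical axis) at or below each log2 fold change (horizontal axis) for the 31 core subunit genes, for genes of similar mean level and for all genes tested, in each experiment. The core genes form a steep curve from −0.03 to 0.32 with RNAi and from −0.22 to 0.17 in mutants, far narrower than either set of other genes.

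The log2 fold changes of the core genes had a narrow spread in both experiments. Their standard deviation was 0.08 with RNAi, near the median standard error of a single core gene (0.08), and 0.10 in mutants, against 0.82 and 0.67 over all genes tested. Across the 31 genes, the fold change with RNAi had a Spearman correlation of −0.35 with exon length, and −0.40 in mutants, while it was −0.07 in both experiments across 1251 genes of similar level. These are descriptions across genes that share libraries. They carry no test, since genes are not independent replicates. The 12 core genes with an exon that overlaps a gene on the other strand, by 1 to 264 bases, had a median of 0.21 with RNAi, and the 19 without such an overlap 0.17.

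In dMPC1 mutants, which lack the carrier in the whole animal, core proteasome transcripts also lay close to the control level. The median log2 fold change against the precise excision library was −0.04, beside 0.01 for all 8794 genes tested. Of 31 members tested, 0 were called, beside 3.7% of all genes (1.31% higher and 2.39% lower). An unadjusted limma p under 0.05 was found for 0 members, beside 11.3% of all genes higher and 12.4% lower, and a limma p of 0.05 or less after adjustment for 0 members, beside 9.37% of all genes (3.79% higher and 5.58% lower). edgeR and DESeq2 also called 0 members. The fold change was above 0 for 11 members and below 0 for 20, beside 51% of all genes above 0. Both mutants lay above the single precise excision library for 9 core genes and below it for 18, beside 41.2% and 38.9% of all genes. With 1 control library, its spread is assumed to equal that of the mutants, and the median width of the 95% intervals was 0.60, compared with 0.39 in the RNAi experiment.

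The median log2 fold changes of the 20S and the 19S genes lay on opposite sides of 0 in mutants, at 0.03 and −0.07, a difference that was not tested. The 13 genes of the 20S particle summed to 15226 and 14450.3 normalized counts in mutants, against 14472 in the precise excision library, and the 18 genes of the 19S particle to 25388 and 24939, against 26479. The beta ring genes had a median log2 fold change of 0.11 and the base subunits without ATPase activity −0.11. Prosbeta7, a beta ring subunit without a protease site, had the highest value, with 1431 and 1427 normalized counts in mutants, against 1273 in the control, a log2 fold change of 0.17 ± 0.13 (SE, limma adjusted p = 0.486). Rpn1 had the lowest, with 2005 and 2034 in mutants, against 2350.0 in the control, a log2 fold change of −0.22 ± 0.13 (SE, limma adjusted p = 0.359). For both genes the mutants sat on one side of the control, but by less than the fit could separate. Among the catalytic subunits, Prosbeta5 had 0.16, Prosbeta2 0.14 and Prosbeta1 −0.01. The sign of the median turned with the scaling: with libraries scaled to total reads in genes the median of all genes was 0.18 and that of the core genes 0.13, which left them 0.05 below all genes.

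The difference between the experiments was tested directly, as the effect of RNAi minus the effect of mutation, with limma over the 8 libraries together. The paralog Rpt6R reached the minimum mean of 10 normalized counts in that fit only through the RNAi experiment, where it was higher. With a limma p of 0.01 or less after adjustment, 0 of 32 members were called, beside 8.71% of all genes (4.78% higher and 3.94% lower), and with 0.05 in place of 0.01 only the paralog Rpt6R was, beside 21.2% (10.7% higher and 10.4% lower). At an unadjusted p under 0.05, 4 members had a larger value with RNAi and 1 a smaller one, beside 17.7% and 17.6% of all genes, and edgeR and DESeq2 also called 0. The difference was above 0 for 30 of 32 members, beside 49.4% of all genes, with a core median of 0.21. Prosalpha5 had the largest among the core genes, 0.51 ± 0.17 (SE, limma adjusted p = 0.0723), followed by Rpn12 with 0.39 and Rpt2 with 0.35.

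All libraries were scaled together by the authors, so the levels of the control groups can be set side by side. The mCherry-RNAi libraries were both below each of the other 6 libraries for 18 of the 31 core genes, beside 15.7% of the genes tested, and above all of them for 0, beside 16.6%. The precise excision library lay above both mCherry-RNAi libraries for 27 core genes, beside 42.9%, and both mutant libraries did so for 19, beside 35.6%. The precise excision library fell within the dMPC1-RNAi range for 14 core genes, above it for 7 and below it for 10. The shares of the genes tested were 32.1%, 33.1% and 34.8%. The core genes deviated from their own means over the 8 libraries by medians of 0.08, 0.03 and 0.09 (log2) in dMPC1-RNAi libraries, −0.11 and −0.14 in mCherry-RNAi libraries, 0.03 and −0.02 in mutants and 0.03 in the precise excision library. The mCherry-RNAi libraries were thus the low ones. Driver, age and time of RNAi differ between the experiments. Temperature may differ as well, since the paper moved RNAi flies to a higher temperature when it counted dividing cells. These cannot be told apart.

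The paralogs Rpt3R and Rpt6R, ATPase genes whose expression is known mainly from the testis, were barely detected. Over all libraries Rpt3R reached 0.442% of the level of Rpt3 and Rpt6R 0.928% of that of Rpt6. Their namesakes stood at 1339.9, 1356 and 1415 normalized counts (Rpt3) and at 1644, 1655 and 1683 (Rpt6) in dMPC1-RNAi intestines, against 1193 and 1194 (Rpt3) and 1448 and 1399 (Rpt6) in mCherry-RNAi intestines. Rpt3R had 5, 7 and 17 reads in dMPC1-RNAi libraries, against 3 and 3 in mCherry-RNAi libraries, and 13 and 3 in mutants, against 3 in the precise excision library. It fell under the minimum mean of 10 normalized counts and was not tested.

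Rpt6R had 16, 19 and 33 reads in dMPC1-RNAi libraries, against 15 and 17 in mCherry-RNAi libraries, and its log2 fold change of 0.17 had a 95% interval of −0.65 to 1.00. In mutants it had 20 and 6 reads, against 1 read in the precise excision library, a ratio of 9.80 with an exact counting interval of 1.61 to 402 that covers counting error only. Rpt6R was under the filter of the mutant experiment and was not tested there. Only its higher level in the RNAi experiment took it past the filter over all libraries together. A test of the difference is therefore no support for one. The low value is that of 1 control library, and the difference between the experiments of −2.29 (limma adjusted p = 0.0380) rests on it. That p stayed at 0.05 or less in 6 of 15 settings and reached 0.260 with DESeq2, and it was 0.0682 with edgeR. Without dMPC1-RNAi replicate 2, either mCherry-RNAi library or either mutant, the limma adjusted p was 0.0767 to 0.105. How reads that match both a subunit and its paralog were assigned is not given in the sources used here.

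Among genes that act with the proteasome, the assembly factor Pomp showed by far the clearest change. Pomp (FBgn0032884), known as Ump1 in yeast, is a chaperone that helps the beta rings assemble and is itself degraded by the finished particle. It stood at 1236, 1205 and 1240.3 normalized counts in dMPC1-RNAi intestines, against 614 and 575 in mCherry-RNAi intestines. The 3 knockdown libraries lay within a few percent of each other and far above both controls, and Pomp rose by a log2 fold change of 1.05 ± 0.08 (SE, limma adjusted p = 3.32e-04), or 2.06-fold. The call held without any 1 of the 5 libraries, with an adjusted p of at most 0.00920 from limma. In dMPC1 mutants it stood at 669 and 652, against 649 in the precise excision library, and the fitted difference of 0.03 on the log2 scale did not pass. The difference between the experiments was 1.02 ± 0.13 (SE, limma adjusted p = 0.00229). The difference in Pomp fell short of that threshold without mCherry-RNAi replicate 1 (adjusted p = 0.0146), mCherry-RNAi replicate 3 (0.0146) or dMPC1 mutant replicate 2 (0.0103), all from limma. Of the 1092 exon bases of Pomp, 437 overlap vari on the other strand. vari stood at 160.1, 166 and 144 normalized counts in dMPC1-RNAi intestines, against 185 and 171 in mCherry-RNAi intestines, with a log2 fold change of −0.18 (limma adjusted p = 0.276), and its part in the Pomp counts was not tested.

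Pomp was the only gene called among the 6 measured assembly factors and activators. PI31, which binds the 20S particle, stood at 569.8, 576 and 658 normalized counts in dMPC1-RNAi intestines, against 455 and 479 in mCherry-RNAi intestines, a log2 fold change of 0.36 ± 0.10 (SE, limma adjusted p = 0.0333). Sem1, the small lid subunit, stood at 741, 775 and 851 in dMPC1-RNAi intestines, against 607 and 599 in mCherry-RNAi intestines, a log2 fold change of 0.38 ± 0.09 (SE, limma adjusted p = 0.0205). Both sets of libraries were separated, and both values were larger than that of any core subunit, but under the fold threshold. The deubiquitinases that dock on the 19S particle, Uch-L5 and CG5384 (Usp14 in RefSeq), had 0.26 and 0.23 with adjusted p-values of 0.0839 and 0.0528 from limma. REG, an alternative cap of the 20S particle, had 0.01 (95% interval −0.19 to 0.20), and CG7546 had −0.13. In mutants 0 of these genes were called, beside 3.7% of all genes, and their log2 fold changes lay between −0.13 (Sem1) and 0.19 (Uch-L5).

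**Figure D5:**
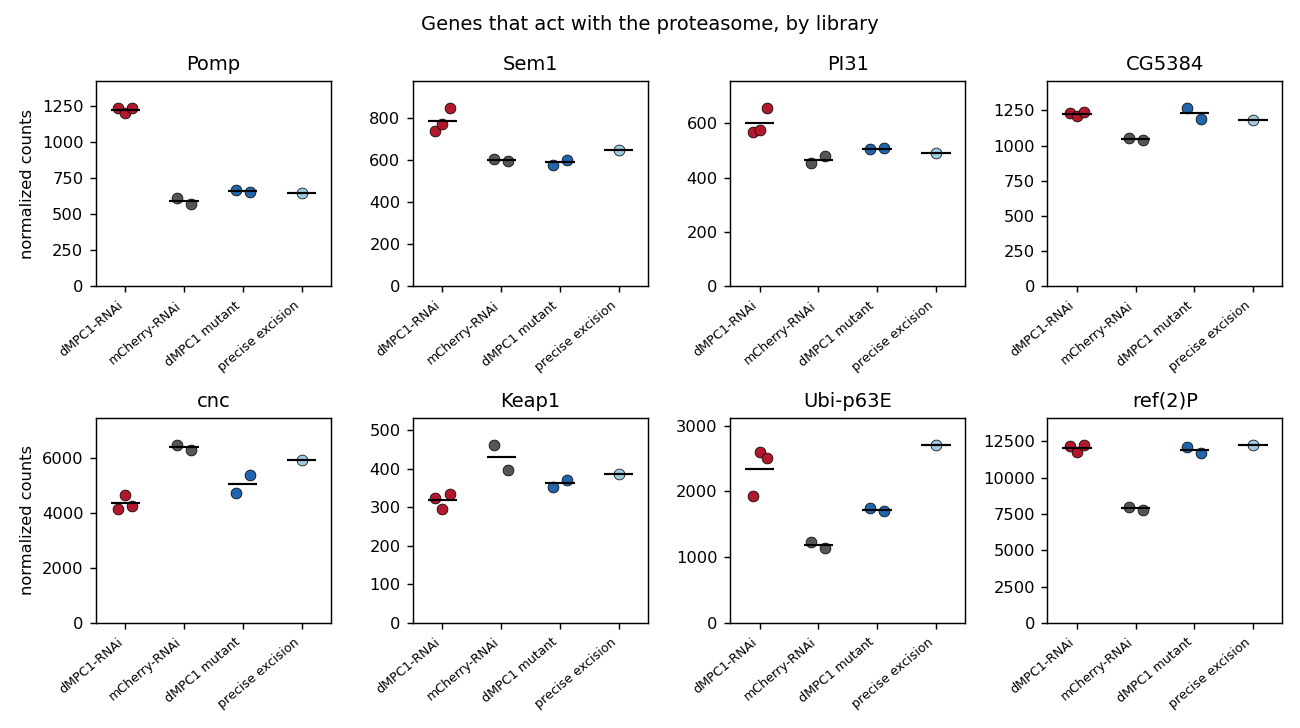
Normalized counts (vertical axis) of 8 genes that act with the proteasome, in dMPC1-RNAi, mCherry-RNAi, dMPC1 mutant and precise excision libraries, with 1 point per library and a bar at the group mean. Pomp stands at 1205 to 1240.3 in dMPC1-RNAi libraries, above all other libraries, while ref(2)P and Ubi-p63E are lowest in mCherry-RNAi libraries.

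The genes of the CncC pathway did not rise. cnc, which encodes the Nrf-type factor CncC and several other isoforms counted together here, stood at 4166, 4674 and 4261 normalized counts in dMPC1-RNAi intestines, against 6500.1 and 6301 in mCherry-RNAi intestines. Its log2 fold change of −0.55 ± 0.09 (SE, limma adjusted p = 0.00443) passed the adjusted p but not the fold threshold. Keap1, which holds CncC in check, stood at 324, 296 and 333 in dMPC1-RNAi intestines, against 462 and 396 in mCherry-RNAi intestines, a log2 fold change of −0.43 (limma adjusted p = 0.0267). maf-S, the DNA-binding partner of CncC, had 0.06. In mutants 0 of the 3 genes were called, beside 3.7% of all genes. Their log2 fold changes were −0.23 for cnc, −0.10 for Keap1 and 0.49 for maf-S.

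The genes that encode ubiquitin itself did not share a direction. Of 10 genes for ubiquitin and its activation and conjugation, 1 rose and 0 fell with RNAi, beside 7.03% and 6.71% of all genes. Ubi-p63E, a polyubiquitin gene, rose, with 1934, 2607 and 2503 normalized counts in dMPC1-RNAi intestines, against 1225 and 1148 in mCherry-RNAi intestines, a log2 fold change of 0.97 ± 0.14 (SE, limma adjusted p = 0.00322). In mutants it stood at 1742 and 1699, against 2715 in the precise excision library, a log2 fold change of −0.66 (limma adjusted p = 0.0214) that did not pass the test. The difference between the experiments, 1.63 (limma adjusted p = 0.00287), rests in part on a precise excision value above every other library. The RNAi call was lost without dMPC1-RNAi replicate 2 or 3 or either mCherry-RNAi library, with adjusted p-values of 0.0145 to 0.0394 from limma.

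RpS27A, which encodes ubiquitin fused to a ribosomal protein, stood at 14483, 13391 and 14529 normalized counts in dMPC1-RNAi intestines, against 20237 and 19563 in mCherry-RNAi intestines, and RpL40, the other fusion gene, at 11878, 9893 and 10959, against 14956 and 15425. Both were thus lower in every knockdown library, with log2 fold changes of −0.49 (adjusted p = 0.00764) and −0.48 (adjusted p = 0.0143) from limma, short of the fold threshold. Ubi-p5E, the other polyubiquitin gene, had 0.23 (limma adjusted p = 0.0746).

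Upstream and parallel systems were examined in the same fit. The p97 segregase and the shuttle factors that deliver substrates to the proteasome comprised 14 genes. Of these, 0 were called by limma with RNAi, beside 13.7% of all genes, and 2 were higher at an unadjusted p under 0.05, beside 21.8%. Their median log2 fold change was 0.13, with 13 of 14 above 0, beside 49.3% of all genes. Plap, a p97 cofactor, had the largest value, with 702, 641 and 677 normalized counts in dMPC1-RNAi intestines, against 480.0 and 450.2 in mCherry-RNAi intestines, a log2 fold change of 0.53 (limma adjusted p = 0.00539), and TER94, p97 itself, had 0.25. Of 8 genes of the COP9 signalosome, a complex built like the lid, 0 were called, beside the same 13.7%, with a median of 0.15. Only 1 was higher at an unadjusted p under 0.05 from limma, beside the same 21.8%. The chaperonin CCT, another ring complex encoded by many separate genes, had 0 of 9 genes called, beside 13.7%, and a median of 0.38, with all 9 above 0. At an unadjusted p under 0.05 from limma, 7 of the 9 CCT genes were higher, beside 21.8% of all genes. With an adjusted p of at most 0.05, 3 were higher, beside 15.6%, with Cctgamma at 0.57 (limma adjusted p = 0.0189). The 9 genes summed to 14207, 17810 and 19200 normalized counts in dMPC1-RNAi libraries, against 13156 and 12715 in mCherry-RNAi libraries, with replicate 1 the lowest of the knockdown libraries.

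Of 20 autophagy genes, 1 rose and 1 fell with RNAi, shares near the 7.03% and 6.71% of all genes that did. ref(2)P, the fly p62, binds ubiquitinated proteins and brings them to autophagosomes. It stood at 12154, 11737 and 12229.8 normalized counts in dMPC1-RNAi intestines, against 7985 and 7790.1 in mCherry-RNAi intestines, a log2 fold change of 0.61 ± 0.08 (SE, limma adjusted p = 0.00229), and at 12105 and 11682 in mutants, against 12271 in the precise excision library. The mCherry-RNAi libraries were again the low ones. Atg17, a scaffold of the kinase complex that starts autophagy, stood at 1444, 1133 and 1208 in dMPC1-RNAi intestines, against 2358 and 2202 in mCherry-RNAi intestines. It fell by 0.86 (limma adjusted p = 0.00276). Both calls were lost without dMPC1-RNAi replicate 2 or 3 or either control, with adjusted p-values of 0.0108 to 0.0430 from limma, and that of Atg17 also with scaling to total reads (−0.52, limma adjusted p = 0.0147).

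Stress chaperones held the most called genes of these lists. Of 16 tested, 4 rose and 1 fell with RNAi, beside 7.03% and 6.71% of all genes. Hsp27 stood at 277, 299 and 418 normalized counts in dMPC1-RNAi intestines, against 27.4 and 30.1 in mCherry-RNAi intestines, a log2 fold change of 3.46 (limma adjusted p = 1.54e-04). Hsp26 stood at 972, 2066 and 2936 in dMPC1-RNAi intestines, against 39.5 and 54.1 in mCherry-RNAi intestines, and rose by 5.26 on the log2 scale. Hsp23 and Hsp68 rose by 6.88 and 6.80, also with replicate 1 as the lowest of the knockdown libraries. The cochaperone DnaJ-1 differed among replicates in the same way, with 350.3, 1579 and 1547 in dMPC1-RNAi intestines, against 193 and 195 in mCherry-RNAi intestines, and was not called. The mCherry-RNAi libraries stood at 15.3 and 17.7 for Hsp23 and at 3.29 and 15.6 for Hsp68. For Hsp26, Hsp23 and Hsp68 they were below every other library of both experiments. In the precise excision library these genes stood at 352, 693 and 249. In mutants they stood at 881 and 450 (Hsp26), 940 and 262 (Hsp23) and 363 and 190 (Hsp68). The Hsp27 and Hsp68 calls held without any 1 library, that of Hsp26 was lost without mCherry-RNAi replicate 1 (limma adjusted p = 0.0110), and that of Hsp23 without mCherry-RNAi replicate 1 (0.0149) or 3 (0.0105). The gene that fell, named after its value was seen, was Hsp70Bb, which fell by 1.86 on the log2 scale and has near-identical copies, which makes its count uncertain. In mutants 0 genes of the ubiquitin, p97, COP9, CCT, autophagy and chaperone lists were called, beside 3.7% of all genes. The CCT genes had a median of 0.34 there, with 8 of 9 above 0, beside 51% of all genes. The 15 stress chaperones tested in mutants had a median of 0.42, with 12 above 0, beside the same 51%.

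Markers of several other cell types also differed between the groups. In bulk samples, fewer cells of a type and less RNA per cell cannot be told apart. Summed transcripts of 8 progenitor markers, all detected in every library, spanned 1831 to 1891 normalized counts in dMPC1-RNAi libraries, against 803 to 862 in mCherry-RNAi libraries, and 866 to 1283 in mutants, against 1509 in the precise excision library. In mutants the 11 visceral muscle markers summed to 19475 to 20401, against 35058 in the precise excision library, the 8 hemocyte markers to 1758 to 1923, against 3373, and the 6 fat body markers to 8624 to 9712, against 42753. The fat body sums were carried by the yolk protein genes Yp1, Yp2 and Yp3. Lsp2 went the other way, at 56.9 and 82.1 in mutants, against 8.61 in the precise excision library. Of 4 fat body markers tested in mutants, 1 rose and 3 fell, beside 1.31% and 2.39% of all genes. In the RNAi experiment these 6 markers summed to 8120 to 11446 in dMPC1-RNAi libraries, against 22621 to 30268 in mCherry-RNAi libraries. Of 3 tested, 2 fell and 0 rose, beside 6.71% and 7.03% of all genes. Lsp1beta and Lsp2 were higher in every dMPC1-RNAi library than in both controls, but too low to be tested. The 8 enteroendocrine markers summed to 5674 to 6222, against 4337 to 4401, and 2 of 8 rose, beside 7.03% of all genes. The 5 Malpighian tubule markers summed to 6415 to 10350.0, against 11245 to 12258. The 3 testis markers found summed to 310.1 to 384, against 505 to 521. In both lists 0 were called, beside 13.7% of all genes. CapaR, a tubule marker, and twe, a testis marker, went the other way and were higher in every dMPC1-RNAi library than in both controls. In mutants the testis markers summed to 630 to 732, against 441 in the precise excision library. The visceral muscle sums overlapped, with 19468 to 21578 in dMPC1-RNAi libraries and 21353 to 23497 in mCherry-RNAi libraries. Of these 11 genes, 6 were lower in every dMPC1-RNAi library than in both controls and 1 was higher. The shares of all genes were 31.8% and 30.8%. Of the 11, 0 were called, beside 13.7%. The part of these shifts in the proteasome values was not tested. Without dMPC1-RNAi replicate 1, the library with germline transcripts, the median over the 32 members tested was 0.19, and 29 of the 32 were above 0.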

How the data were processed

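RNA from dissected intestines was sequenced by the authors as single reads and aligned to the dm3 assembly. USeq and DESeq are named in the paper, Novoalign and DESeq in the submitters' notes on processing. Versions, annotation and strand settings: not given in the sources used here. As deposited, the normalized signal is the authors' read count of a gene after scaling by their size factor for the library. The deposited log2 ratios and adjusted p-values of the authors' own comparisons were not used. Whole reads were recovered from the steps of the low values, and 100% of 9981 values per library came out whole within 0.001.

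limma 3.58.1 in R 4.3.3 with a mean-variance trend was run on log2(normalized count + 1) for genes averaging 10 or more, each experiment on its own libraries (3 and 1 residual degrees of freedom), with Benjamini-Hochberg adjustment over all genes tested. This scale understates changes of low genes. p-values measure the spread between these libraries, which may be technical. Replicates of a group differed by more than sampling noise in all 5 pairs compared. edgeR 4.0.16, DESeq2 1.42.0 and other filters, pseudocounts, scalings and thresholds were alternatives. Functions were tested on simulated data. Exon lengths, chromosome arms and overlaps are from Ensembl release 115, with 33 of 33 members matched by gene ID. Members and lists were chosen with earlier results of these data known. Values per library are given for the members highest and lowest in fold change and level, the catalytic subunits and the paralogs beside their namesakes. Outside the rule, the measured assembly, lid and CncC genes and up to 4 genes with the smallest p of each other list were considered. Some of these have values per library here, and others only a fold change or no value.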

Additional observations from a re-analysis of the deposited data

Results flagged for a closer look

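Each of the following genes had a difference between the effect of dMPC1-RNAi and the effect of the dMPC1 mutation with a limma p of 0.01 or less after adjustment over all genes. For Pomp the difference was 1.02 on the log2 scale (adjusted p = 0.00229 from limma), lost without mCherry-RNAi replicate 1 or 3 or dMPC1 mutant replicate 2 (0.0103 to 0.0146). For Ubi-p63E it was 1.63 (adjusted p = 0.00287 from limma), and the call was lost without mCherry-RNAi replicate 1 (0.0176), mCherry-RNAi replicate 3 (0.0158) or dMPC1 mutant replicate 2 (0.0136). For RpS27A it was −0.83 (adjusted p = 0.00752 from limma), a call that held only without dMPC1-RNAi replicate 1, with adjusted p-values of 0.0166 to 0.0452 without any other library and 0.0207 with libraries scaled to total reads in genes, all from limma. For the small heat shock genes Hsp26 and Hsp23 it was 4.42 (adjusted p = 0.00675) and 7.36 (adjusted p = 0.00578) from limma, and for Hsp68 6.72 (adjusted p = 0.00541 from limma). The mCherry-RNAi libraries were below every other library for Hsp26, Hsp23 and Hsp68. The calls of Hsp26 and Hsp23 were lost without dMPC1-RNAi replicate 2 or 3, either mCherry-RNAi library or dMPC1 mutant replicate 2, with adjusted p-values up to 0.0348 and 0.0304 from limma, and with edgeR (0.0105 and 0.0101). That of Hsp68 was lost without dMPC1-RNAi replicate 2 or 3, mCherry-RNAi replicate 1 or either mutant, with adjusted p-values up to 0.0240 from limma. No proteasome member was among them.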

How the results depend on the processing

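No alternative gave a called proteasome member in the mutants, and with RNAi only scaling to total reads in genes gave 3 (core median 0.54). At an adjusted p of at most 0.05 with no minimum fold, 1 member was called with RNAi and 1 in the difference, with 2984 genes in all for RNAi, 824 for mutants and 1886 for the difference. Scaling to total reads called 1999 genes with RNAi (1727 higher and 272 lower, against 627 and 599) and 527 in mutants, where the core median was 0.13. In mutants 0 genes were called with no filter, 117 with TMM, 132 with edgeR and 199 with all libraries in 1 fit. Leaving out 1 library gave 187 to 1935 called genes with RNAi, 85 to 106 in mutants and 121 to 1633 for the difference. Precise excision replicate 2 could not be left out. With replicate number as a block over the shared numbers 1 and 3 (correlation of deviations −0.21), the core median was 0.20 with 0 members called, and 839 genes in all were called, but not ref(2)P (limma adjusted p = 0.0123). No paired analysis was possible in the mutant experiment because its groups share 1 number.

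Values near 0 turned sign. With RNAi, Rpt1 was 0.0013 with TMM, 0.32 with total reads and 0.0014 with the replicate block, where REG was −0.00099, and CG7546 was 0.22 with total reads. Leaving out 1 library with RNAi gave −0.074 to 0.0014 for Rpt1, −0.018 to 0.050 for Rpn1, −0.057 to 0.36 for Rpt6R, −0.058 to 0.073 for REG and −0.047 to 0.17 for maf-S. In mutants, total reads gave 0.17 for Prosbeta1 and CG7546, 0.14 for Rpt1, 0.046 for Sem1, 0.078 for Keap1, 0.15 for Plap, 0.13 for ref(2)P and 0.10 for Atg17. TMM gave 3.9e-05 for CG7546, and edgeR 0.0045 for Prosbeta1, 5.5e-04 for CG7546 and 1.0e-04 for Plap. Leaving out 1 mutant gave −0.070 to 0.049 for Prosbeta1, −0.021 to 5.0e-04 for CG7546, −0.15 to 0.10 for Plap, −0.022 to 0.077 for TER94, −1.40 to 0.44 for Hsp23, −0.39 to 0.54 for Hsp68 and −0.17 to 0.015 for Atg17.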
